A study of Homo sapiens with 15 samples.

Results

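Of 61248 loci in the table of this RNA sequencing study of NCI-H1975 cells, 5 are described here: HSD17B14, CSDC2, RENBP, ZNF114 and IGFL2-AS1. They were chosen by their measured difference between almonertinib and control cells, as large increases with the drug, so those values are given as a description without a test. All 5 were among the 14999 genes with at least 1 FPKM (fragments assigned to a gene, scaled by the length of the gene and the total of the library) in at least 3 libraries. The set was also named in advance as lowered by EGF. With EGF, 4 of the 5 were lower than in control cells, and ZNF114 was not.

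NCI-H1975 is a lung adenocarcinoma cell line in long use, known to carry activating and drug-resistance changes in EGFR. The 15 libraries fall into 5 groups of 3: control, almonertinib, EGF, siNC and siEGFR. The siNC cells received a negative control siRNA, as the label is read here, and the siEGFR cells an siRNA against EGFR. Dose, time, transfection reagent, siRNA sequence and the vehicle of the control cells are not given in the sources used here, and neither is whether the libraries of a group came from separate cultures. The p-values therefore rest on the variation among these libraries, part or all of which may be technical.

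EGFR is a receptor tyrosine kinase of epithelial cells. Its ligand EGF switches on the kinase and, through it, the RAS-ERK and PI3K-AKT pathways, which drive growth. Almonertinib, also called aumolertinib, is an inhibitor that binds mutant EGFR covalently and shuts the kinase off. The 5 genes have unlike functions. HSD17B14 encodes a short-chain dehydrogenase that oxidises estradiol in vitro. RENBP encodes the renin-binding protein, an epimerase that interconverts N-acetylglucosamine and N-acetylmannosamine, the precursor of sialic acid. CSDC2 encodes an RNA-binding protein with a cold shock domain, first studied in brain. ZNF114 encodes a zinc finger protein of the KRAB type, a class that recruits a co-repressor complex to DNA. IGFL2-AS1 is a long noncoding RNA from the cluster of IGF-like genes.

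Recovered read totals ran from 18009903 to 34908302 per library. EGFR, the target of the siRNA, stood at 49.6 ± 0.218 FPKM (SD, n = 3) in siNC and 29.1 ± 0.666 in siEGFR cells. It was at 24.4 ± 3.17 in control, 16.7 ± 2.18 in almonertinib and 25.4 ± 4.26 in EGF cells, so the knockdown left EGFR RNA above its control level. Summed epithelial markers (EPCAM, KRT8, KRT18, KRT19, CDH1) lay between 799.7 and 1055 FPKM, and lung lineage markers (NKX2-1, SFTPB, SFTPC, NAPSA) between 4.12 and 20.7. Of 5 leukocyte markers, PTPRC, CD3E and LYZ had means under 0.1 FPKM, and CD14 made up most of the list's 3.96 to 41.7. Of 5 fibroblast markers, DCN and LUM had means under 0.1 FPKM, and COL1A2 made up most of the list's 137 to 371. The 3 endothelial markers summed to 0.339 to 3.50 FPKM. No marker was at 0 in every library. In either direction, 30.1% of tested genes passed an adjusted p of 0.05 between almonertinib and control, 49.3% between EGF and control and 66.0% between siNC and control. In bulk RNA, fewer cells expressing a gene and less of its RNA per cell cannot be told apart.

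A promoter entry was found for 1 of the 5 genes, RENBP, which is shown because RENBP was higher with the drug and lower with EGF. The sequence is RefSeq's, build GRCh38.p14, chrX:153944594-153944893 on the minus strand, printed 5′ to 3′ from 250 bases before to 50 bases after the start. Capitals mark the match to a GC box.

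RENBP promoter: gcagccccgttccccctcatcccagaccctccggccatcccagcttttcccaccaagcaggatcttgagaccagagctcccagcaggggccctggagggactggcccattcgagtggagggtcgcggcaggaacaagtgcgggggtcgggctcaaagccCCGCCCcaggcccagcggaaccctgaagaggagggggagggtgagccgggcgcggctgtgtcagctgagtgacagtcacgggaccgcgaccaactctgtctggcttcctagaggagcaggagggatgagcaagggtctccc

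Of 6 motifs searched on both strands, the GC box GGGCGG matched once, on the reverse strand, at position -91 from the start. It is present in 45.0% of the 35116 promoters of the table. The AP-1 letters TGACTCA (4.9% of promoters), the E-box CACGTG (7.3%), the forkhead letters GTAAACA (3.4%), the ETS letters CCGGAAG (10.3%) and the TATA box TATAAA (11.5%) are not in this window.

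HSD17B14, the steroid dehydrogenase, had the largest increase with almonertinib of all tested genes. Ranks here and below are by the difference in log2(FPKM + 1), so they depend on the pseudocount of 1. It stood at 4.01, 5.34 and 6.69 FPKM in control 1, 2 and 3 and at 23.4, 26.0 and 21.7 FPKM with almonertinib. The drug libraries all lay above the control libraries, and the means were 4.44-fold apart (log2(FPKM + 1) difference 1.98 ± 0.12, SE). With EGF it was at 1.68, 1.63 and 1.58 FPKM, on 43 to 55 reads a library. All EGF libraries lay below all control libraries, and the means were 3.28-fold apart (-1.25 ± 0.12). The siNC libraries, at 4.40, 4.86 and 4.89 FPKM, overlapped the control libraries. The siEGFR libraries, at 3.47, 3.08 and 3.44 FPKM, lay below all siNC and control libraries and above all EGF libraries. The order of the means was therefore almonertinib, control, siNC, siEGFR, EGF, with only control and siNC overlapping as neighbours.

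RENBP, the amino sugar epimerase, was the fifth largest increase. Its levels were 2.43, 3.37 and 3.28 FPKM in control and 10.8, 10.9 and 8.39 FPKM with almonertinib, a ratio of means of 3.31 (log2 difference 1.45 ± 0.10). EGF libraries stood at 0.616, 0.537 and 0.498 FPKM, on 26 to 32 reads each. These 3 groups did not overlap, and the control mean was 5.50-fold above the EGF mean (-1.37 ± 0.10). In siNC cells RENBP was at 3.64, 4.06 and 4.06 FPKM and in siEGFR cells at 3.96, 3.78 and 4.05 FPKM. Both siRNA groups lay above all control libraries and overlapped each other, the reverse side of control from EGF. The siNC mean was 1.30 times the control mean (0.30 ± 0.10).

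CSDC2, the cold shock domain protein, was the fourth largest increase with almonertinib. Its difference was below that of RENBP with a pseudocount of 0.1 (1.57 against 1.70) and with limma-voom (1.58 against 1.74). Control libraries held 8.82, 12.8 and 12.9 FPKM and almonertinib libraries 33.4, 38.9 and 29.7 FPKM, 2.95 times as much on average (log2 difference 1.49 ± 0.14). With EGF the values were 1.34, 1.66 and 1.15 FPKM. The EGF mean was 8.32-fold below control (-2.38 ± 0.14), the fifth largest decrease of all tested genes. The siNC libraries were lower still, at 0.604, 0.517 and 0.439 FPKM on 31 to 46 reads each. That was 22.1-fold below control (-3.02 ± 0.14), in cells without EGFR siRNA. The siEGFR libraries held 0.979, 0.571 and 0.781 FPKM and overlapped the siNC libraries, below all EGF libraries.

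IGFL2-AS1, the noncoding RNA, had the smallest ratio of the 5 with almonertinib and ranked number 20 among increases. It was at 10.8, 8.10 and 9.85 FPKM in control and at 21.6, 19.4 and 23.7 FPKM with the drug, a ratio of 2.24 (log2 difference 1.09 ± 0.10). With EGF it was at 1.31, 1.27 and 1.20 FPKM. The control mean was 7.63-fold higher than the EGF mean (-2.22 ± 0.10), and the groups did not overlap. As for CSDC2, the siRNA groups were lowest: siNC libraries held 1.10, 0.795 and 0.816 FPKM and siEGFR libraries 0.717, 0.672 and 0.875 FPKM. The siNC mean was 10.6-fold below control (-2.47 ± 0.10), and both siRNA groups lay below all EGF libraries while overlapping each other.

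ZNF114, the zinc finger gene, was the eighth largest increase and the exception with EGF. Control libraries stood at 10.9, 8.10 and 10.2 FPKM and almonertinib libraries at 23.6, 24.1 and 34.2 FPKM, a ratio of 2.80 (log2 difference 1.39 ± 0.13). Almonertinib 3 was the highest library of all. With EGF the values were 10.3, 8.81 and 10.1 FPKM, which overlapped control throughout (0.0022 ± 0.13). The siNC values of 11.2, 9.28 and 10.9 FPKM overlapped control too, and siEGFR cells held 12.8 FPKM in each of the 3 libraries. Only the almonertinib libraries thus left a band of 8.10 to 12.8 FPKM.

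**Figure D1:**
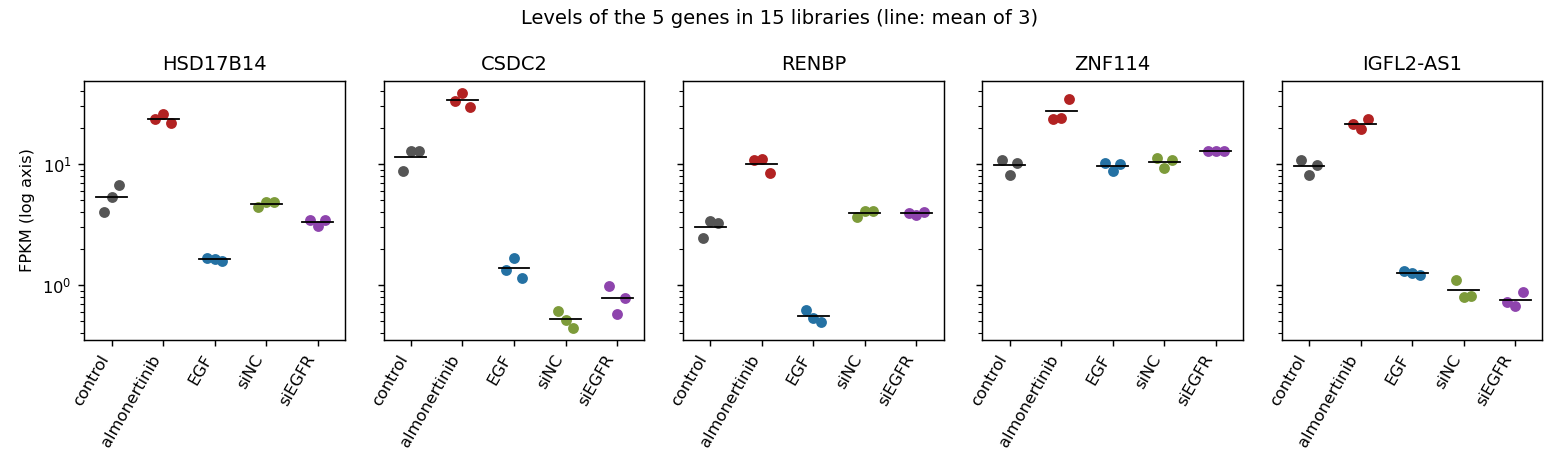
FPKM of the 5 genes (log axis) in every library of the 5 groups, 1 point per library and a line at each group mean. HSD17B14 and RENBP are lowest with EGF, CSDC2 and IGFL2-AS1 are lowest in both siRNA groups, and ZNF114 stands apart only with almonertinib.

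Read together, all 5 genes had every almonertinib library above every control library, against 14.6% of all tested genes, a separation their choice already fixed. In 4 of 5 every EGF library was below every control library, against 28.8% of tested genes. This is no test either, since the set was named in advance for a fall with EGF. The EGF and almonertinib comparisons also share the control libraries. The almonertinib libraries chose the genes, so their levels against EGF are a description too. The ratio of the almonertinib to the EGF mean was 24.6 for CSDC2, 18.2 for RENBP, 17.1 for IGFL2-AS1, 14.5 for HSD17B14 and 2.81 for ZNF114.

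The siNC cells divided the genes in another way. CSDC2 and IGFL2-AS1 had all siNC libraries below all control libraries, RENBP had them above, and HSD17B14 and ZNF114 overlapped. Of all tested genes, 33.2% had all siNC libraries below and 35.5% above control. These values share the control libraries with the drug comparison and were not tested.

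**Figure D2:**
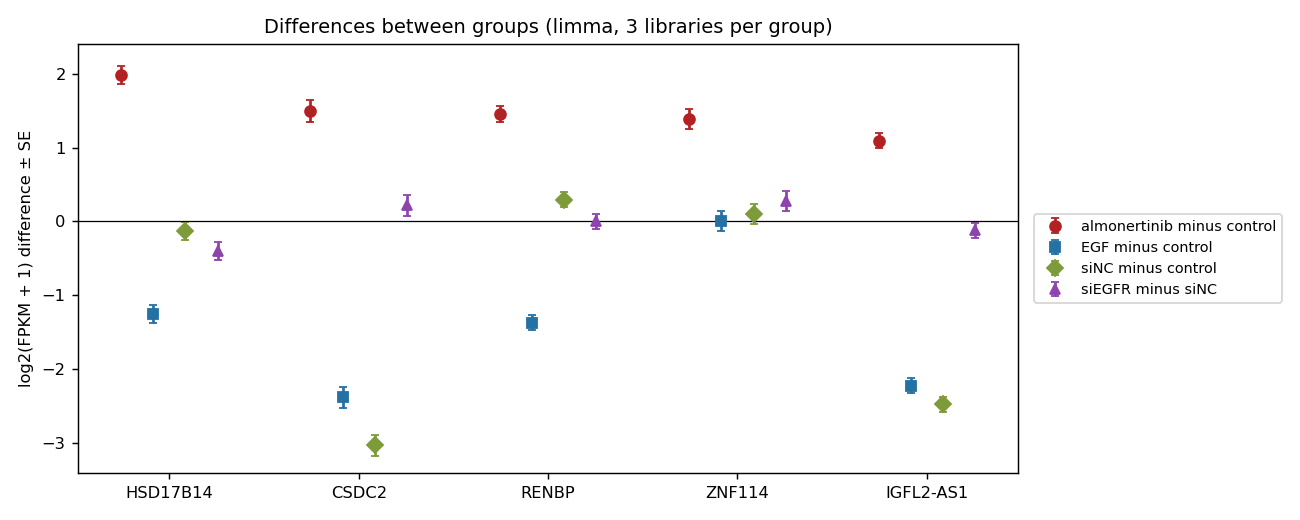
Differences in log2(FPKM + 1) between groups for each gene, with SE bars from the fit of all 15 libraries. Almonertinib minus control lies between 1.09 and 1.98 for all 5, while EGF minus control runs from -2.38 to 0.0022 and siNC minus control from -3.02 to 0.30.

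The size of the difference between siEGFR and siNC uses no library of the drug comparison that chose the genes. Its SE, interval and p do use those libraries, since all 15 libraries share 1 estimate of spread per gene. Earlier results of all groups were also known. The difference was tested with limma, with Benjamini-Hochberg adjustment over the 14999 genes. None of the 5 passed an adjusted p of 0.05, where 5.46% of all tested genes did. An unadjusted p under 0.05 was found for 1 of 5. The share of all tested genes under it was not computed, so this count cannot be called high or low. limma-voom on the recovered reads gave the same 2 counts, 0 and 1.

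HSD17B14 came nearest: siEGFR was lower than siNC by a log2 difference of -0.40 ± 0.12 (95% interval -0.66 to -0.14, limma adjusted p = 0.0785). The highest siEGFR library was below the lowest siNC library, as in 17.9% of tested genes. It passed in a fit of the 6 siRNA libraries alone (limma adjusted p = 0.00395), which called 1617 of the 14999 tested genes higher and 1463 lower. It also passed in the fit without control 1 and almonertinib 3 (limma adjusted p = 0.00632), which called 802 higher and 838 lower. The fit of all 15 libraries called 340 higher and 479 lower. Over all 16 alternatives the limma adjusted p ran from 0.00395 to 0.26. The side on which it lay is the opposite of its side with almonertinib. For ZNF114 all siEGFR libraries lay above all siNC libraries (0.27 ± 0.13, interval -0.01 to 0.56, limma adjusted p = 0.324), as in 22.7% of tested genes. Its adjusted p ran from 0.0256, in the 6-library limma fit, to 0.672.

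The remaining 3 overlapped between siEGFR and siNC. The interval was -0.09 to 0.53 for CSDC2 (limma adjusted p = 0.501), -0.22 to 0.23 for RENBP (limma adjusted p = 0.997) and -0.34 to 0.10 for IGFL2-AS1 (limma adjusted p = 0.663). Each upper bound is below the gene's difference with almonertinib against control, 1.49, 1.45 and 1.09. The 2 differences come from unlike treatments and their contrast was not tested. CSDC2 and IGFL2-AS1 were at under 1.2 FPKM in both siRNA groups, where 31 to 95 reads stood behind a value and the pseudocount of 1 shrinks differences.

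In control 1 and almonertinib 3, the 5 genes split by base composition. HSD17B14, CSDC2 and RENBP have transcripts of 61.4%, 64.3% and 62.8% GC, ZNF114 and IGFL2-AS1 of 48.1% and 46.3%, and the median of tested genes was 49.0%. In control 1 the deviations from the group mean were -0.32, -0.33 and -0.22 for the GC-rich genes and 0.16 and 0.17 for ZNF114 and IGFL2-AS1, in log2 units. In almonertinib 3 they were -0.12, -0.18 and -0.22 against 0.34 and 0.14. Control 1 and almonertinib 3 thus held the lowest value of their group for each GC-rich gene and the highest for the other pair. Control 2 split the other way, at 0.02, 0.16 and 0.13 against -0.23 and -0.21. So did almonertinib 2, at 0.13, 0.20 and 0.12 against -0.15 and -0.14. In siEGFR 1 the split was on that side too but smaller, at 0.05, 0.16 and 0.01 against -0.0008 and -0.03. Other libraries did not all show this split: in EGF 1 the GC-rich genes were at 0.03, -0.02 and 0.06 against 0.08 and 0.03, and in siNC 1 CSDC2, at 0.08, lay with ZNF114 and IGFL2-AS1, at 0.10 and 0.15.

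Across 14410 genes, which are not independent replicates, GC content and deviation had a Pearson correlation of -0.63 in control 1, -0.54 in almonertinib 3, 0.53 in control 2 and 0.58 in almonertinib 2. In EGF 1, 2 and 3 it was -0.42, 0.54 and -0.30. In siNC and siEGFR libraries it stayed between -0.27 and 0.27. The part of this spread in the differences of the 5 genes was not tested. Without control 1 and almonertinib 3, the difference with the drug stayed within 1 SD of the value in all 15 libraries for all 5 genes. These 2 libraries deviate alike, 1 on each side of the difference, so leaving out both cannot show the part of GC content. Control 2 and almonertinib 2, with the opposite sign, stayed in that fit.

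**Figure D3:**
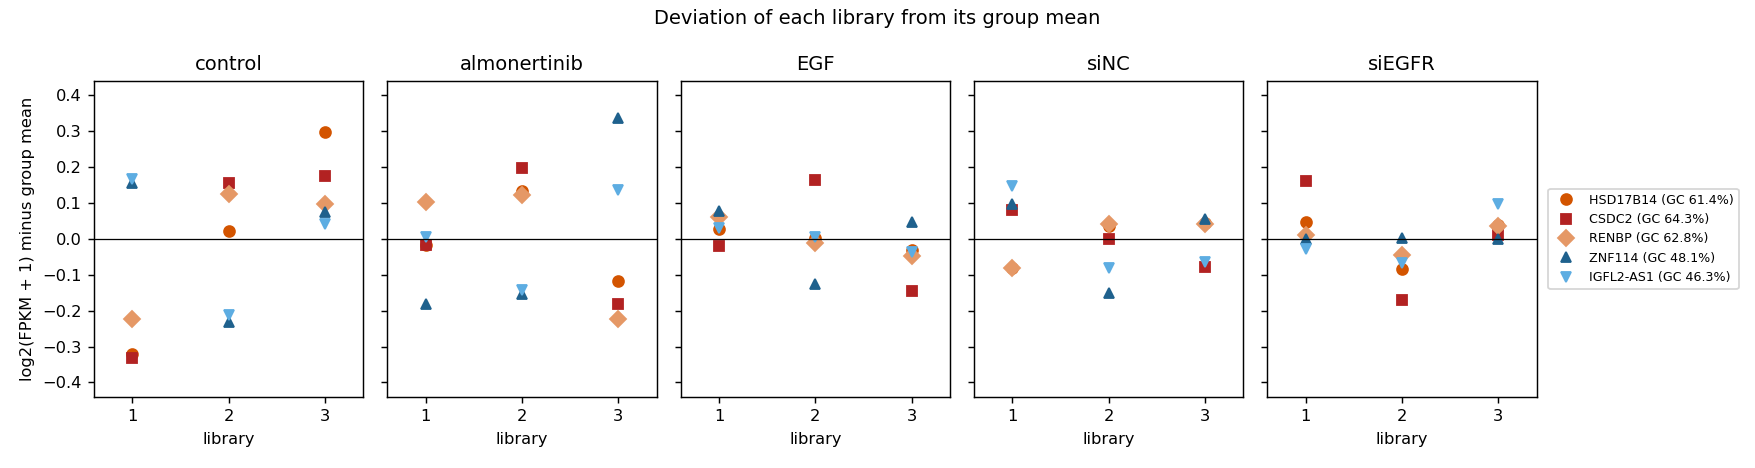
Deviation of each library from its group mean in log2(FPKM + 1) for the 5 genes, by group and library number, with warm colours for the 3 GC-rich genes and blue for ZNF114 and IGFL2-AS1. The colours lie on opposite sides of 0 in control 1 and almonertinib 3 (-0.33 to 0.17 and -0.22 to 0.34). They do so the other way round in control 2, almonertinib 2 and siEGFR 1 (-0.23 to 0.16, -0.15 to 0.20 and -0.03 to 0.16).

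In GENCODE v29, 3 of the 5 genes overlap another gene on the opposite strand, and whether counting used strand is not given in the sources used here. Reads in exon bases that a pair shares cannot be told apart without strand, so the values of CSDC2 and ZNF114 are uncertain to that extent. CSDC2 shares 172 exon bases with PMM1, a phosphomannomutase. PMM1 was at 10.2 FPKM in control and 14.8 FPKM with almonertinib (0.50 ± 0.08, limma adjusted p = 0.000526), where CSDC2 differed by 1.49. PMM1 also fell by 0.50 with EGF (limma adjusted p = 0.000133). ZNF114 shares 114 exon bases with ZNF114-AS1, which averaged 0.693 FPKM in control and 0.520 FPKM with almonertinib (limma adjusted p = 0.58).

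IGFL2-AS1 spans the pseudogene IGFL1P1 and shares no exon base with it. IGFL1P1 held 20.8, 28.5 and 28.1 FPKM in control, 61.2, 60.8 and 55.7 FPKM with almonertinib and 2.15, 2.58 and 3.01 FPKM with EGF. The siNC libraries were at 3.08, 1.81 and 1.99 FPKM and the siEGFR libraries at 1.52, 2.07 and 1.33 FPKM. The groups ordered as for IGFL2-AS1, with drug above control and EGF and both siRNA groups far below. IGFL1P1 rose with almonertinib by 1.18 ± 0.16 (limma adjusted p = 0.000195), fell by 2.90 with EGF (limma adjusted p = 1.31e-08) and was lower in siNC than in control cells by -3.03 (limma adjusted p = 2.75e-09). Its difference between siEGFR and siNC was -0.31 (limma adjusted p = 0.354). The 2 loci had a Pearson correlation of 0.99 over the 15 libraries, as a description. IGFL1P1 was tested in the same libraries that chose IGFL2-AS1, so its rise is not independent of that choice. The protein-coding genes of the family did not share this level: IGFL1, IGFL2, IGFL3 and IGFL4 and the receptor gene IGFLR1 were all too low to be tested.

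Within 5 places on either side of each gene in RefSeq's order there are 50 positions, of which 39 were in the table and 21 could be tested. With almonertinib 6 of these 21 rose and 2 fell, against 12.1% and 18.0% of all tested genes. In a limma fit of the 6 control and almonertinib libraries 4 were called, as were 857 of all 14999 tested genes. The 6 that rose in the fit of all 15 libraries were PPP1R15A, NUCB1, PMM1, TMEM187, TMEM143 and IGFL1P1. Of these, NUCB1 (limma adjusted p = 0.0696), TMEM143 (0.11) and TMEM187 (0.129) did not pass in the 6-library fit. TMEM143 also lost its call without control 1 and almonertinib 3 (limma adjusted p = 0.0561). PMM1 and IGFL1P1 overlap a chosen gene, so their rise may not be independent of the choice. TMEM187 lost its call without control 1 (limma adjusted p = 0.0871), control 3 (0.0562) or almonertinib 2 (0.0992). DESI1, near CSDC2, fell by 0.20, a call lost without control 3 (limma adjusted p = 0.0574) or almonertinib 2 (0.0595). Beside HSD17B14, PLEKHA4, a phosphoinositide-binding protein, fell by 0.90 (limma adjusted p = 2.08e-06). PPP1R15A, a phosphatase subunit of the stress response and the next gene beyond PLEKHA4, rose by 0.44 (limma adjusted p = 0.000147). Beside RENBP, the acetyltransferase gene NAA10 (0.15, limma adjusted p = 0.358) and the transcriptional cofactor HCFC1 (-0.31, limma adjusted p = 0.0829) did not pass. Next to ZNF114, ODAD1 was too low to be tested, at 0.574 FPKM in control.

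With siEGFR against siNC 2 of the 21 neighbours passed, 1 higher and 1 lower, against 2.27% and 3.19% of tested genes. The one that rose, by 0.59, was the adhesion molecule L1CAM near RENBP (limma adjusted p = 0.000977). With EGF 7 neighbours rose and 7 fell, against 22.0% and 27.3% of tested genes, and in siNC against control 8 were higher and 11 lower, against 34.4% and 31.6%.

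**Figure D4:**
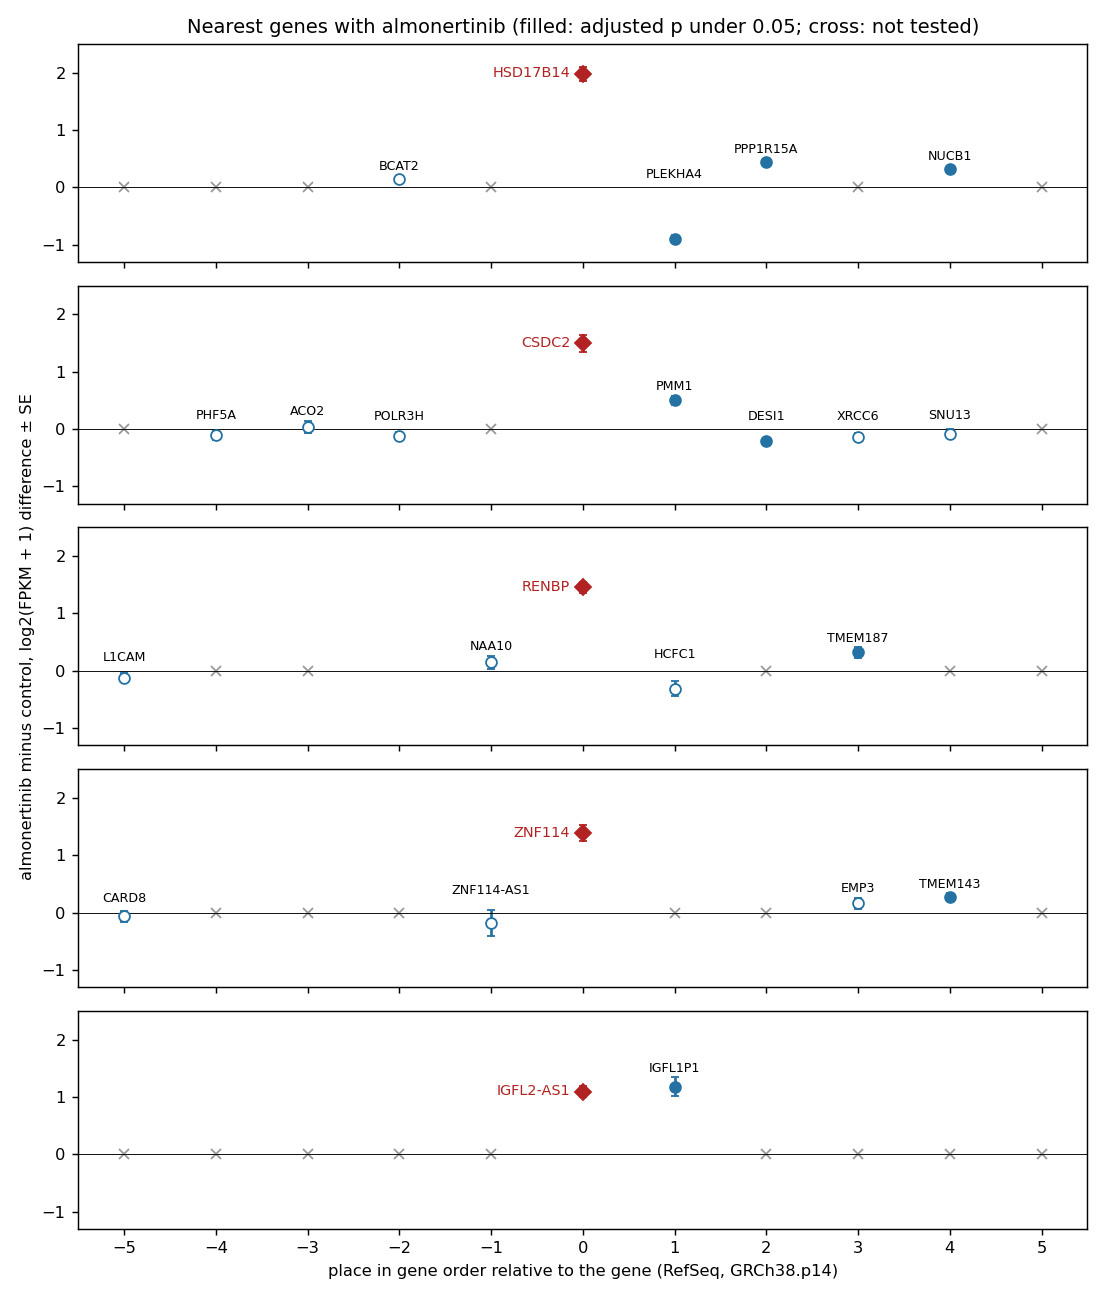
Difference with almonertinib in log2(FPKM + 1) of the 5 genes (red diamonds, SE bars) and their tested neighbours, by place in RefSeq's gene order, with crosses for neighbours that were not tested and 1 place near RENBP left empty. IGFL1P1 beside IGFL2-AS1, at 1.18, is the highest neighbour, followed by PMM1 beside CSDC2 at 0.50.

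Genes of the same families were then set beside the 5. Of 11 further HSD17B genes, enzymes of steroid and fatty acid metabolism, 7 could be tested. With almonertinib 1 of the 7 passed: HSD17B12, which elongates fatty acids, fell by 0.62 (limma adjusted p = 0.003), while HSD17B14 was at 1.98. Of all tested genes 18.0% fell. The count of 1 became 3 without control 2 and 2 without almonertinib 3. HSD17B8 was at 0.43 (limma adjusted p = 0.0516). With EGF 3 of the 7 rose and 1 fell, against 22.0% and 27.3% of tested genes. HSD17B7, an enzyme of cholesterol synthesis, rose by 1.30 (limma adjusted p = 9.57e-09), and HSD17B8 fell by 1.11 (limma adjusted p = 6.27e-05). The list's median difference with the drug was -0.07, against -0.06 for all tested genes.

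Around RENBP, 19 of 20 genes of amino sugar and sialic acid metabolism were tested. With almonertinib 4 rose and 5 fell, against 12.1% and 18.0% of all tested genes. AMDHD2, which removes the acetyl group of N-acetylglucosamine phosphate, rose by 0.65 (limma adjusted p = 0.00406). The lysosomal sialidase NEU1 rose by 0.38 (limma adjusted p = 0.00244), and the deaminase GNPDA1 and the salvage kinase NAGK rose too. GFPT2, an enzyme of the first step of hexosamine synthesis, was at -0.36 (limma adjusted p = 0.00088). The others that fell were GNE, which makes N-acetylmannosamine from the UDP sugar, NANP, UAP1 and GNPNAT1. Without control 1, NAGK (limma adjusted p = 0.0617), NANP (0.0969), UAP1 (0.0678) and GNPNAT1 (0.11) lost their calls, and without almonertinib 2 so did NANP (0.0891), UAP1 (0.0699) and GNPNAT1 (0.107). Leaving out almonertinib 1 ended the calls of NAGK (0.0559), NANP (0.0557) and GNPNAT1 (0.0685), and leaving out control 3 those of NANP (0.058) and GNPNAT1 (0.0617). With EGF 7 rose and 5 fell, against 22.0% and 27.3%, and the 12 calls became 7 without EGF 1. Between siEGFR and siNC 1 of the 19 passed, against 5.46% of tested genes: NANS, the sialic acid synthase, rose by 0.28 (limma adjusted p = 0.0122). That call was lost without siNC 1 (limma adjusted p = 0.0733), siEGFR 1 (0.0507) or siEGFR 3 (0.0542). The median with the drug was -0.17.

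Of 7 other cold shock domain genes 5 were tested. With almonertinib 2 of these rose, against 12.1% of all tested genes: CARHSP1 rose by 0.29 (limma adjusted p = 0.0251) and YBX2 by 0.22 (limma adjusted p = 0.0318). CARHSP1 lost its call without control 1 (limma adjusted p = 0.0889), almonertinib 1 (0.0761) or almonertinib 2 (0.112), and YBX2 without control 1 (0.0965), control 2 (0.0645) or almonertinib 2 (0.131). YBX2 also rose by 0.38 with siEGFR against siNC (limma adjusted p = 0.00552), 1 of 5 against 2.27% of tested genes. With EGF 1 rose and 1 fell, against 22.0% and 27.3%, and 1 of these calls was left without control 3, EGF 1 or EGF 3. The list's median with the drug was 0.03.

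For ZNF114, all 6 genes of the KRAB co-repressor were tested. With almonertinib 2 of them fell, against 18.0% of all tested genes: CBX5, a heterochromatin protein, fell by 0.56 (limma adjusted p = 0.0251), and ATF7IP fell by 0.30 (limma adjusted p = 0.0292). Both calls were lost without control 1 (limma adjusted p = 0.101 and 0.118) or almonertinib 2 (0.104 and 0.113). In siNC against control cells 4 were higher and 1 lower, against 34.4% and 31.6% of all tested genes.

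Of 392 tested zinc finger genes named ZNF with a number, 33 rose and 51 fell with almonertinib, against 12.1% and 18.0% of all tested genes. These 84 calls became 39 without control 1, 41 without almonertinib 2 and 124 without control 2. ZNF467 rose by 0.65 (limma adjusted p = 8.24e-05), ZNF581 rose by 0.56 (limma adjusted p = 0.000128) and ZNF239 was at -0.45 (limma adjusted p = 0.000355). With EGF 19 rose and 117 fell, against 22.0% and 27.3% of all tested genes. Between siEGFR and siNC 4 rose and 6 fell, against 2.27% and 3.19% of all tested genes, among them ZNF132 at -0.68 (limma adjusted p = 5.06e-05), ZNF185 at 0.61 (limma adjusted p = 5.06e-05) and ZNF629 at 0.41 (limma adjusted p = 0.00119). The 10 calls became 4 without siNC 1, 5 without siNC 3, siEGFR 2 or siEGFR 3, and 6 without siNC 2 or siEGFR 1.

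A limma fit of the 6 control and almonertinib libraries alone called 857 of the 14999 tested genes. None of the 7 HSD17B, 19 amino sugar, 5 cold shock or 6 co-repressor genes passed in it. Their counts with an unadjusted p under 0.05 were 2, 9, 1 and 2. The share of all tested genes under it was not computed, so these counts cannot be called high or low. Of the 392 zinc finger genes 5 passed in that fit.

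**Figure D5:**
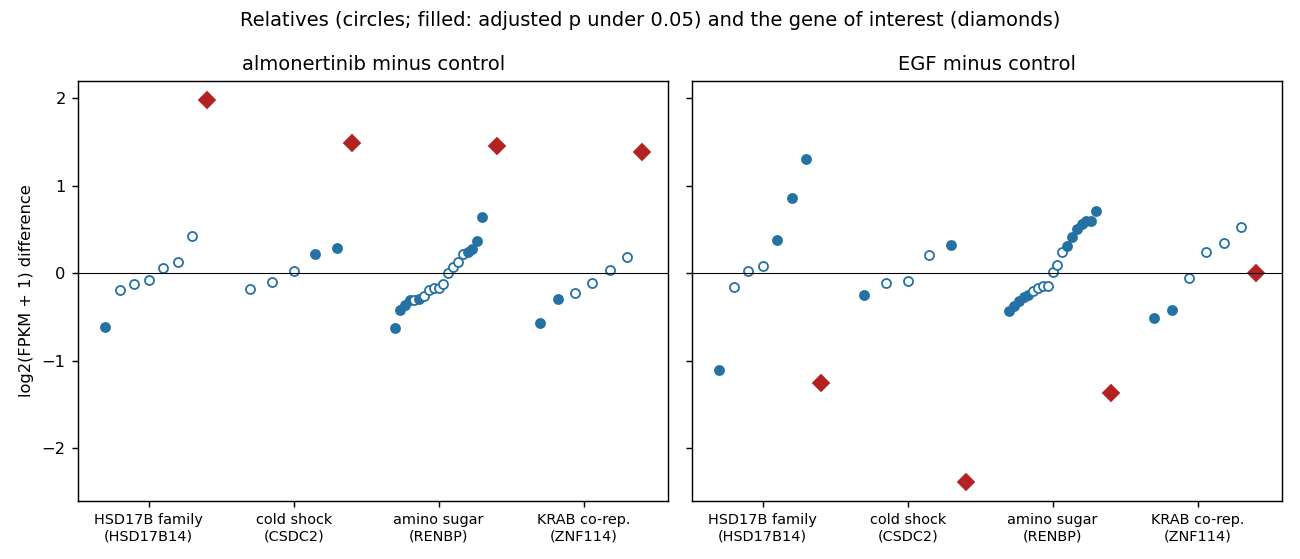
Difference in log2(FPKM + 1) from control with almonertinib (left) and EGF (right) for the tested genes of 4 lists (circles, filled where the adjusted p is under 0.05) and for the gene each list belongs to (red diamonds). HSD17B14 at 1.98, CSDC2 at 1.49, RENBP at 1.45 and ZNF114 at 1.39 lie above all circles on the left, and the first 3 lie below those of their lists on the right.

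The genes whose pattern over the 15 libraries was most like each of the 5 were named by Pearson correlation, as a description in which group differences set most of the values. For CSDC2 they were PODXL2, MST1 and NEIL1, with r of 0.996, 0.996 and 0.995. For IGFL2-AS1 they were EZH1, SCPEP1 and GSTK1, at 0.995, 0.994 and 0.994. For RENBP they were REPIN1 (0.981), GPNMB (0.977) and SORBS3 (0.971). GPNMB, a lysosomal and melanosomal glycoprotein, was at 15.6 FPKM in control, 42.3 with almonertinib and 2.66 with EGF. For HSD17B14 they were GTF2IRD1, NHERF1 and CCDC88B, at 0.975, 0.970 and 0.969. ZNF114 had the loosest likeness, with SMARCAL1, BOD1 and SELENOM at 0.926, 0.903 and 0.890.

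Among the 5 themselves, CSDC2 and IGFL2-AS1 were closest, with r of 0.988 over the 15 libraries, followed by HSD17B14 and RENBP with 0.902. The lowest values, both 0.574, were those of RENBP with CSDC2 and with IGFL2-AS1, whose siRNA levels lay on the other side of control.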

How the data were processed

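Poly(A)-enriched paired-end RNA libraries were made, per the labels' protocols. The deposited table holds FPKM values computed by the authors. HISAT2, featureCounts and DESeq2 were used with build hg19, per the submitters' processing notes, which give no version or role of a tool. The FPKM were not rounded: 100.0% of positive values were whole reads within 0.01 reads, and the recovered reads were used for depth and for limma-voom. Symbols were matched for 60463 of 61248 IDs.

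The 14999 genes that reached 1 FPKM in 3 or more of the 15 libraries were fitted as log2(FPKM + 1) in limma 3.58.1 (R 4.3.3), with 1 coefficient per group, intensity trend and robust moderation. Tests were two-sided with Benjamini-Hochberg adjustment over all tested genes and a threshold of 0.05. Fold changes on this scale understate changes of low genes. Summaries used Python 3.11.15 with pandas 2.3.3 and numpy 2.4.6, and figures matplotlib 3.10.9.

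The 5 genes and all lists were chosen with earlier results of these data known. Named besides them were the 3 most alike genes per gene reaching an average of 5 FPKM in their highest group, up to 3 genes per list by smallest p with almonertinib and up to 3 past the threshold with siEGFR, direct neighbours, and EGFR. Other genes of a short list that passed, neighbours that rose and overlapping genes were named after their values were seen. Alternatives changed the pseudocount, filter, scaling, libraries, variance trend, block and model. GENCODE v29 gave overlaps and GC content. No gene coordinates are given, since the files use hg19. The values of 1 neighbour of RENBP are not reported here.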

Additional observations from a re-analysis of the deposited data

How the results depend on the processing

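Of 384 recomputed values for 24 results, 344 counted as unchanged, by a rule that differed between kinds of result. For single genes between siEGFR and siNC it covered direction and side of the threshold, not size. CSDC2 thus counted as unchanged at 0.5944 with limma-voom, against 0.2204. Other differences of single genes were held to size within the spread between replicates, not to direction. ZNF114 with EGF thus counted as unchanged at -0.1132 without control 2, against 0.0022. Counts of called genes were judged by size alone. Differences of low genes grew with a pseudocount of 0.1, TPM scaling or limma-voom. With the pseudocount, RENBP was at 1.70 with almonertinib and HSD17B14, CSDC2, RENBP and IGFL2-AS1 at -1.62, -2.96, -2.25 and -2.83 with EGF. CSDC2 and IGFL2-AS1 were then at -4.21 and -3.27 in siNC against control. TPM scaling gave -1.52, -2.81, -1.96 and -2.66 with EGF, and -3.80 and -3.00 for siNC. limma-voom gave 1.74 for RENBP with almonertinib, -1.66, -3.06, -2.43 and -2.92 with EGF, and -4.47 and -3.43 for siNC.

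Between siEGFR and siNC, HSD17B14 passed at -0.40 in the 6-library fit and without control 1 and almonertinib 3, and ZNF114 passed at 0.27 in the 6-library fit. RENBP, at 0.003, turned negative with median-ratio scaling (-0.0145) and limma-voom (-0.0014). It ranged from -0.0382 to 0.0251 when each siRNA library was left out, with negative values without siNC 1, siEGFR 1 or siEGFR 3. All of these are far within its interval.

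Calls with almonertinib numbered 4517, but 857 in the 6-library fit (399 higher, 458 lower), and 2853 to 5611 when a library was left out, lowest without almonertinib 2. Of these 4517, 40.2% were higher, against 22.0% with TPM scaling and 50.4% with median-ratio scaling, which moved the median gene from -0.06 to -0.15 and 0.00. Calls with EGF numbered 7396, and with siNC against control 9899, but 4726 and 6103 under the stricter filter of 5 FPKM, which tests fewer genes. Of the calls with EGF 44.7% were higher, against 57.7% with median-ratio scaling. Calls with siEGFR numbered 819, but 3080 in the 6-library fit, 1640 without control 1 and almonertinib 3, and 441 to 525 without any 1 of the 6 siRNA libraries. The fit of all 15 libraries takes 1 estimate of spread per gene from all 5 groups, and a 6-library fit takes it from its 2 groups. Where the spread differs between groups, a shared estimate can make p too small for almonertinib and too large for siEGFR. The part of this in the counts was not tested.

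Whether the replicate numbers pair the libraries is not settled by correlations of their deviations. Same-numbered libraries ran from -0.169 to 0.539 for control and almonertinib, and differently numbered ones from -0.593 to 0.569. For control and EGF the ranges were -0.124 to 0.597 and -0.672 to 0.328. For siNC and siEGFR they were -0.007 to 0.033 and -0.041 to 0.029. A replicate block gave 5614 calls with almonertinib and 8040 with EGF, against 4517 and 7396 without it. With the replicate block, HSD17B14 had a limma adjusted p of 0.0755 for siEGFR against siNC, and calls with siEGFR numbered 432 higher and 604 lower. The block changed no call of the 5 genes.

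Reads limit the low values most: RENBP with EGF rests on 26 to 32 reads a library and CSDC2 in siNC cells on 31 to 46.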
